A study of Mus musculus with 2 samples.

Results

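Macrophages of the bone marrow carry complement C1q chains, colony-stimulating factor 1 receptor, uptake receptors, adhesion molecules and the enzymes and pumps that recycle haem iron, and 10 such genes were read out here in RNA of sorted haematopoietic stem cells (HSCs). The genes were chosen by symbol for that role, with earlier results of these data known. They were C1qa, C1qb, C1qc, Csf1r, Mertk, Vcam1, Hmox1, Slc40a1, Fn1 and F13a1, which are 10 of the 54531 genes in the table. The labels call the cells HSCs of mouse bone marrow. By its title and genotype label the control is Angptl2fl/fl, with floxed alleles of Angptl2, a secreted angiopoietin-like protein, and by its description and column name it is Cdh5_Cre, so whether its mice carried Cre is not settled. The other genotype is Cdh5-Cre;Angptl2fl/fl, in which Cre is driven from the Cdh5 promoter, active in endothelium, and the labels describe these mice as deficient in Angptl2 in endothelial cells. The floxed alleles are therefore in the genotype labels of both groups. The sources used here do not give ages, the number of mice per library or the surface markers of the sort. There was 1 library per genotype, called the control and the deletion sample, so no test across samples was possible, and "higher" and "lower" describe these 2 libraries.

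In the marrow, macrophages sit at the centre of erythroblastic islands, where they hold maturing red cell precursors through VCAM1, engulf the nuclei these cells expel and return iron through the exporter ferroportin. C1q is assembled from the products of C1qa, C1qb and C1qc, binds immune complexes and dying cells, and starts the classical complement pathway; tissue macrophages are a main source of it. CSF1R signalling keeps macrophages alive and drives monocytes towards them. C1q and Csf1r are not among the genes HSCs are known for.

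The RefSeq promoter table on GRCm38.p6 held 4 of the 10 genes, C1qb, C1qc, Mertk and F13a1, with 5 windows in all, since F13a1 has more than 1 start. The printed windows are the 3 that hold the core letters GAGGAA of the binding motif of PU.1, a transcription factor of macrophages, on either strand. The capitals mark that match. All lie upstream of the transcription start and are read along the minus strand, at chr4:136886201-136886450 (C1qb), chr4:136893066-136893164 (C1qc) and chr13:37050245-37050494 (F13a1).
C1qb: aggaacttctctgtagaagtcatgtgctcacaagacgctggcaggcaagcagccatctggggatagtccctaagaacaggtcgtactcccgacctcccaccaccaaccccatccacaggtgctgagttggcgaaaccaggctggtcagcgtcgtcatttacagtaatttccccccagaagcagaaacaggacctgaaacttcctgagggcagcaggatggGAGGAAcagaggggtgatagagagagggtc
C1qc: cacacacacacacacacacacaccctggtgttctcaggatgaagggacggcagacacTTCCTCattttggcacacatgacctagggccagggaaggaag
F13a1: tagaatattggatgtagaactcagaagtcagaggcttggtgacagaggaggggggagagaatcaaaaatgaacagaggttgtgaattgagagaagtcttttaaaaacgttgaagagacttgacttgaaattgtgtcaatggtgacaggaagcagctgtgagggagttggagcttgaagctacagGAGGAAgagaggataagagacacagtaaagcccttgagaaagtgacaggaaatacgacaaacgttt
For C1qc only 99 bases are printed, because the other 151 of the 250 bases lie in an annotated exon of another transcript. GAGGAA was in 23.3% of 32851 promoter windows of 250 bases, so a match is a common event. The match lay 30 to 25 bases before the start of C1qb, 193 to 188 before that of C1qc (as its reverse complement) and 66 to 61 before that of F13a1. The C1qb window also held the core of an antioxidant response element, TGACNNNGC, on the opposite strand, 103 to 95 bases before the start, which 10.2% of windows hold. Neither CACGTG, the E-box of MITF and TFE factors, nor GGGNTTTCC, an NF-kB type motif, was found in the 5 windows. These letters occur in 6.02% and 1.46% of all windows.

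The deposited unit, FPKM, scales fragments to gene length and to library depth, which allows levels to be compared between genes. Fragment numbers could be recovered from whole multiples of a step for 96.5% of genes above 0 in the control and 96.1% in the deletion sample, which put the depths at 17378600 and 16843100 fragments. The libraries differed in the fragment numbers of their lowest genes. In the control 1389 genes had 1 fragment and 467 had 6, whereas in the deletion sample 295 genes had 1 fragment and 453 had 6, the most common number there. A counting interval was therefore computed from the fragments and again with the fragments of both libraries divided by 6, and both cover counting error only. Genes with 1 to 5 fragments numbered 4943 in the control and 1653 in the deletion sample. Mitochondrially encoded genes took 8.91% and 13.7% of summed FPKM. Angptl2 itself had 29 fragments in the control and 19 in the deletion sample, with a counting interval of the log2 ratio from -1.48 to 0.32, and Cdh5 had 2 fragments and 0. These levels check neither the deletion nor the labels.

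**Figure D1:**
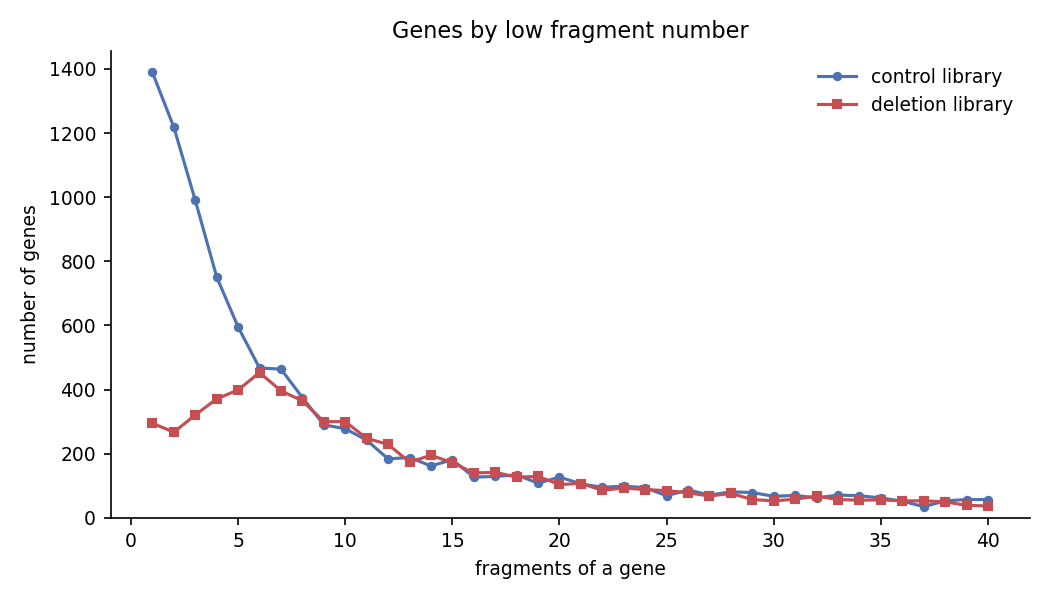
Number of genes (vertical axis) with each fragment number from 1 to 40 (horizontal axis) in the control (circles) and the deletion sample (squares). The control curve starts at 1389 genes with 1 fragment and declines, while the deletion curve starts at 295 and has its highest point, 453 genes, at 6 fragments.

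The 3 C1q genes were lower in the deletion sample. C1qa, the A chain, stood at 9.07 FPKM in the control and 3.88 FPKM in the deletion sample, from 164 and 68 fragments. C1qb, the B chain, stood at 8.25 and 3.93 FPKM, from 156 and 72 fragments. C1qc, the C chain, stood at 4.20 and 2.49 FPKM, from 141 and 81 fragments. In each case the control was the higher, by 2.34-fold for C1qa, 2.10-fold for C1qb and 1.69-fold for C1qc as plain ratios of FPKM. The summed level of the chains was 21.5 FPKM in the control and 10.3 FPKM in the deletion sample. In bulk RNA, fewer cells of a type and less RNA per cell cannot be told apart. The counting intervals of the log2 ratio were -1.65 to -0.81 for C1qa, -1.49 to -0.66 for C1qb and -1.17 to -0.35 for C1qc, so all 3 excluded equality and overlapped one another. With fragments divided by 6 the intervals were -2.37 to -0.18 for C1qa, -2.19 to -0.033 for C1qb and -1.84 to 0.27 for C1qc. A difference in C1qc was thus not detectable under that count.

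The genes lie side by side in an 18675-base cluster on chromosome 4, all on the minus strand (GENCODE M21, GRCm38), with C1qb at 136880129 to 136886187, C1qc at 136889804 to 136893065 and C1qa at 136895917 to 136898803. Between them lie 3616 bases (C1qb to C1qc) and 2851 bases (C1qc to C1qa), and no other annotated gene overlaps any of them. Per length, C1qa and C1qb were at near equal levels in each library, with a ratio of C1qa to C1qb of 1.10 in the control and 0.988 in the deletion sample. C1qc was the lowest chain in both, with a ratio of C1qa to C1qc of 2.16 in the control and 1.56 in the deletion sample.

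The receptors had the largest plain ratios after that of Fn1. Csf1r, which binds CSF1 and IL34, stood at 4.44 FPKM in the control and 0.754 FPKM in the deletion sample, a ratio of 5.89-fold. Csf1r (chromosome 18, 61100598 to 61132149, plus strand) has no recovered fragment number, and 873 bases of its exons overlap exons of Hmgxb3 on the other strand, a gene at 15.3 and 13.5 FPKM. The sources used here do not say whether the libraries kept strand, so reads of the overlap cannot be assigned, and Csf1r has no counting interval. Mertk, a receptor tyrosine kinase for apoptotic cell uptake (chromosome 2, 128698956 to 128802894, plus strand), stood at 0.677 and 0.123 FPKM, from 51 and 9 fragments. Its plain ratio was 5.49-fold, with a log2 counting interval of -3.67 to -1.42, and with fragments divided by 6 the interval of -6.44 to 0.061 included equality. Mertk was the only one of the 10 under a mean of 1 FPKM, so it is not among the genes counted past 2-fold at that minimum.

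Vcam1 went the other way. Vcam1, the adhesion molecule that binds integrin alpha4 beta1 (chromosome 3, 116109949 to 116129688, minus strand), stood at 3.69 FPKM in the control and 5.78 FPKM in the deletion sample, from 569 and 863 fragments. The deletion sample was 1.56-fold higher, and the log2 interval was 0.49 to 0.80, or 0.26 to 1.04 with fragments divided by 6. It was the only one of the 10 with a higher value in the deletion sample. Marrow endothelial and stromal cells also express it, and which cells gave the Vcam1 RNA here was not tested.

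The haem and iron genes differed from each other. Hmox1, haem oxygenase 1, which splits haem and releases its iron (chromosome 8, 75093621 to 75100589, plus strand), stood at 10.4 FPKM in the control and 4.34 FPKM in the deletion sample, from 316 and 128 fragments. Its level was 2.39-fold lower in the deletion sample, with a log2 interval of -1.57 to -0.96, or -2.06 to -0.51 with fragments divided by 6. Slc40a1, ferroportin, which exports iron from cells and is expressed by erythroid precursors too (chromosome 1, 45908068 to 45926523, minus strand), stood at 12.3 and 12.1 FPKM, from 1927 and 1834 fragments. The Slc40a1 log2 interval of -0.12 to 0.067 included equality and did not overlap that of Hmox1, also not with fragments divided by 6 (-0.26 to 0.20). The ratio of Slc40a1 to Hmox1 was 1.19 in the control and 2.79 in the deletion sample.

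The matrix and crosslinking genes held the largest ratio of the 10. Fn1, fibronectin (chromosome 1, 71585520 to 71653200, minus strand), stood at 6.57 FPKM in the control and 0.615 FPKM in the deletion sample, from 1334 and 121 fragments. This was a 10.7-fold difference, with a log2 interval of -3.70 to -3.15, or -4.15 to -2.76 with fragments divided by 6. F13a1, the A subunit of coagulation factor XIII, which crosslinks fibrin and fibronectin and is made by monocytes, macrophages and megakaryocytes (chromosome 13, 36867178 to 37050244, minus strand), stood at 3.74 and 1.30 FPKM, from 438 and 148 fragments. It was 2.87-fold lower, with a log2 interval of -1.80 to -1.25, or -2.24 to -0.84 with fragments divided by 6. The Fn1 interval lay below that of F13a1 in either count. Fn1 exceeded F13a1 by 1.76-fold in the control and was below it in the deletion sample, at a ratio of 0.472.

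**Figure D2:**
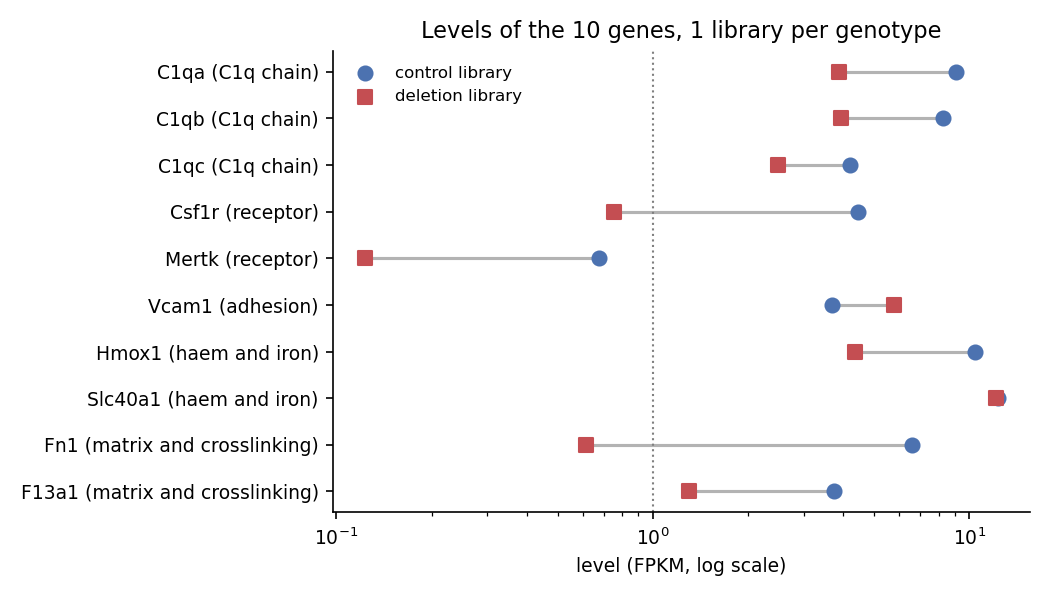
Levels of the 10 genes (FPKM, log scale) in the control (circles) and the deletion sample (squares), with a grey line joining the values of a gene and a dotted line at 1 FPKM. Vcam1 lies to the right in the deletion sample, the Slc40a1 points nearly coincide, and Csf1r, Mertk and Fn1 are below 1 FPKM in the deletion sample.

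**Figure D3:**
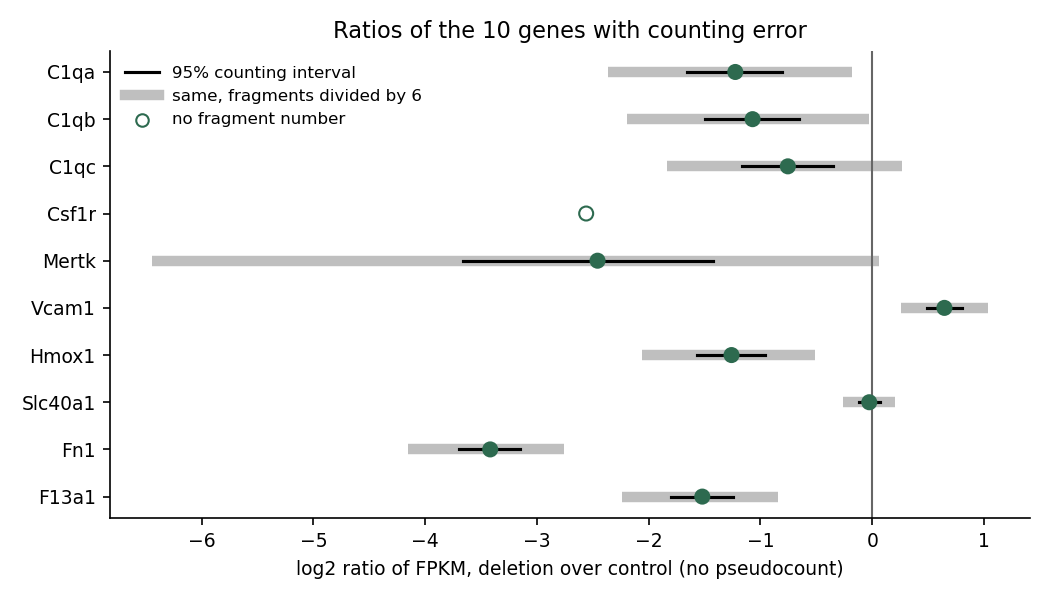
Log2 ratio of FPKM, deletion over control and without a pseudocount (points), with 95% counting intervals (thin black lines) and the same with fragments divided by 6 (grey bars). Csf1r (open point) has no fragment number, and the grey bars of C1qc, Mertk and Slc40a1 cross 0.

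Genes were counted as past 2-fold on the log2(FPKM + 1) scale at a mean of at least 1 FPKM, a scale that understates differences of low genes. On it 5 of the 9 genes that reached the mean were lower, C1qa (-1.05), Csf1r (-1.63), Hmox1 (-1.09), Fn1 (-2.23) and F13a1 (-1.04), and 0 were higher. Among all 12325 genes at that mean, 3.38% were lower and 2.47% were higher by the same rule. The shares were 0.752% lower and 0.488% higher among protein-coding genes, and among protein-coding genes at a mean of 1 to 15 FPKM, a span that holds the means of these 9, 0.946% were lower and 0.600% higher. Because the 10 genes were chosen with earlier results of these data known, their count beside these shares is a description and not a test. Csf1r and Fn1 were above 1 FPKM in the control only, so they reached the mean through the group in which they were high. The remaining 4 were C1qb (-0.91), C1qc (-0.58), Slc40a1 (-0.024) and Vcam1 (0.53). With a pseudocount of 5 only Fn1 passed 2-fold. The counting interval excluded equality for 7 of the 8 genes above the minimum that had fragment numbers, 6 lower and Vcam1 higher, but the same was so for 30.0% (lower) and 26.8% (higher) of 11710 genes, and with fragments divided by 6 for 9.96% and 8.25%. Summed FPKM of the 10 genes was 63.3 in the control and 35.3 in the deletion sample.

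**Figure D4:**
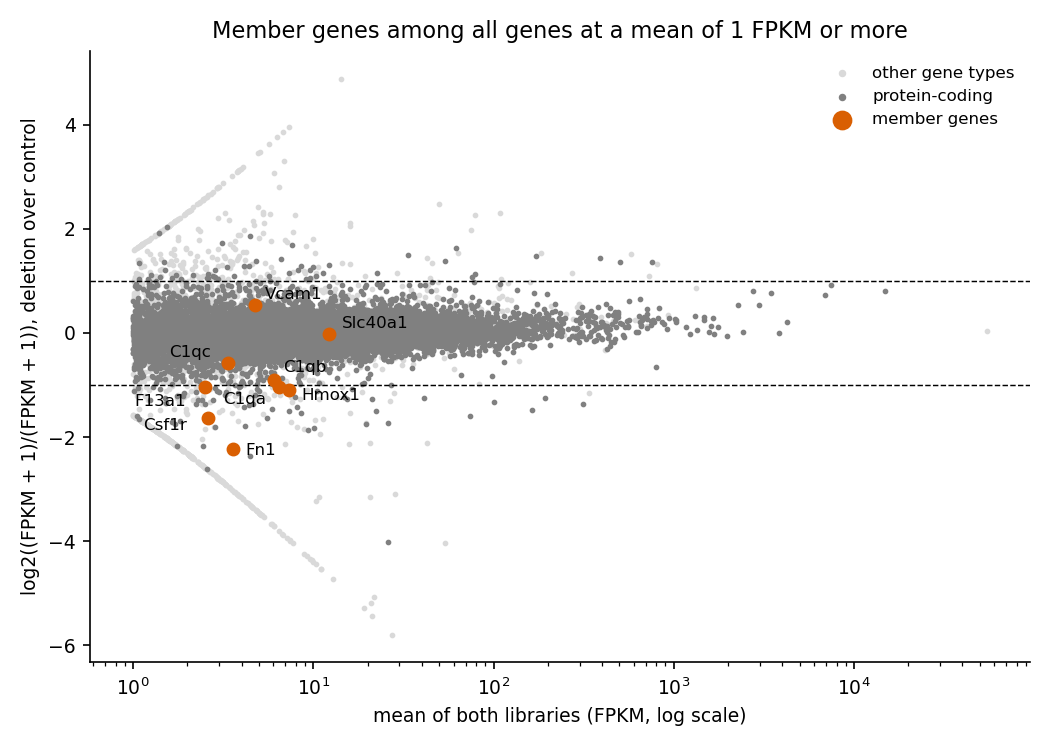
Log2((FPKM + 1)/(FPKM + 1)), deletion over control, against the mean of both libraries (FPKM, log scale) for the 12325 genes that reach a mean of 1 FPKM, with 9 of the 10 genes in orange and dashed lines at 2-fold. Csf1r and Fn1 lie well below the lower dashed line, C1qa, Hmox1 and F13a1 lie just below it, and Slc40a1 and Vcam1 lie between the lines.

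In order of level, Slc40a1 was highest and Mertk lowest in both libraries. Vcam1 was 9th of the 10 in the control and 2nd in the deletion sample, and Fn1 was 5th and 9th. With 1 library per genotype this order has no replicate check. Among protein-coding genes above 0, the 10 levels ran from percentile 27.1 (Mertk) to 72.1 (Slc40a1) in the control and from 6.50 to 68.9 in the deletion sample.

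Other genes of the same pathways were read from 7 lists that leave out the 10. Of their 119 entries, 75 reached a mean of 1 FPKM, and 3 of these were at least 2-fold lower and 0 higher, with 51 below 0 and 24 above 0. Over all genes 51.6% were below 0 and the median log2 ratio was -0.011. The shares at least 2-fold lower were 3.38% over all genes and 0.752% over protein-coding genes, with 2.47% and 0.488% higher. The lists too were chosen with earlier results known, so their counts beside these shares are a description and not a test.

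The macrophage identity list, of genes chosen as macrophage markers, was the only one of the 7 in which every gene at the mean was below 0. The same was so outside these 7, for the 11 neutrophil and the 6 dendritic cell markers at the mean. Of its 20 genes, 10 reached the mean, 0 passed 2-fold, and the median was -0.46. The lowest were Mpeg1 (perforin 2), at 3.37 FPKM in the deletion sample and 7.17 FPKM in the control, and Cd14, a lipopolysaccharide coreceptor, at 3.70 and 7.76 FPKM. Nearest 0 were the apolipoprotein gene Apoe, at 146 and 157 FPKM, and the lysosomal protease gene Ctsb, at 31.1 and 33.3 FPKM. Named for their role after their values were seen, Adgre1 (F4/80) had 25 fragments in the deletion sample and 91 in the control, Mrc1 (mannose receptor) had 45 and 128, and Cd68 had 116 and 192. Fcgr1 went the other way, with 9 and 5, and was the only gene of the list with a higher value in the deletion sample. Msr1 had 11 and 16. The counting intervals of Fcgr1 (-0.84 to 2.82) and Msr1 (-1.75 to 0.70) included equality. Mrc1, Fcgr1 and Msr1 were under the mean of 1 FPKM. Gpnmb was at 0 in both libraries. Marco, Vsig4, Trem2, Ms4a7 and Aif1 were at 0 in the deletion sample only, with between 4 (Vsig4) and 17 (Ms4a7) fragments in the control, and a count of 0 allows up to 3 fragments. With fragments divided by 6 all their intervals included equality, with upper ends from 1.47 (Ms4a7) to 8.02 (Vsig4). Values of 0 were also more common in the deletion sample, where 18217 genes were above 0, against 21891 genes in the control.

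Of 12 further genes of erythroblastic island macrophages, 7 reached the mean, 0 passed 2-fold, 5 were below 0, and the median was -0.17. Cd5l, a secreted scavenger protein of macrophages, was lowest at 0.904 FPKM in the deletion sample and 2.52 FPKM in the control, followed by the cytokine gene Il18 at 1.84 and 3.18 FPKM. Dnase2a, whose nuclease digests expelled nuclei, was highest at 9.70 and 7.82 FPKM, with Maea, an attachment protein that erythroblasts share, at 49.8 and 43.7 FPKM. Icam4 was at 0 in both libraries. Cd163, the haemoglobin scavenger receptor, was read out after its values were seen, at 2.51 and 2.94 FPKM. Under the mean and also read out after their values were seen, Siglec1 had 46 fragments in the deletion sample and 99 in the control. Spic had 14 and 28, Palld 34 and 77, and Timd4 0 and 5. The Siglec1 log2 interval was -1.60 to -0.54. With fragments divided by 6 the intervals of all of these genes included equality.

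In the classical complement list, 11 of 19 genes reached the mean, with 2 lower, 0 higher and a median of 0.014. The lower genes were C5ar1, the C5a receptor of myeloid cells, with 65 fragments in the deletion sample and 188 in the control, and Cfp, properdin, at 3.93 FPKM in the deletion sample and 9.15 FPKM in the control. Calr, calreticulin, which binds C1q on dying cells and is a general chaperone, was highest at 273 and 223 FPKM, followed by the membrane inhibitor Cd59a at 8.95 and 7.63 FPKM. Genes of the proteases that work with C1q were sparse, with C1ra at 0.76 and 1.52 FPKM and C1s1 at 0 in the deletion sample and 3 fragments in the control, both read out after their values were seen.

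Of 16 apoptotic cell uptake genes, 7 reached the mean, 0 passed 2-fold, and the median was -0.11. Axl, a relative of Mertk, was lowest at 1.51 FPKM in the deletion sample and 3.48 FPKM in the control, and the lipid exporter gene Abca1 was next at 1.62 and 2.34 FPKM. Dock1 and Rac1, which move actin during engulfment, were highest at 1.44 and 0.937 FPKM and at 51.4 and 44.3 FPKM.

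Haem and iron recycling genes were close to equal. Of 20, 15 reached the mean, 0 passed 2-fold, and their log2 ratios ran from -0.19 to 0.20 with a median of -0.015. The ends were Aco1 (iron regulatory protein 1), at 22.3 FPKM in the deletion sample and 25.5 FPKM in the control, and Steap3 (a ferrireductase), at 28.7 and 32.6 FPKM, against Flvcr1 (a haem exporter), at 7.35 and 6.26 FPKM, and Nfe2l2 (an inducer of Hmox1), at 36.3 and 32.9 FPKM. Slc11a1, the phagosomal metal transporter NRAMP1, was under the mean of 1 FPKM and was singled out after its values were seen, with 5 fragments in the deletion sample and 105 in the control. Hamp, hepcidin, which degrades ferroportin, was at 0 in both.

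In the CSF1 receptor axis, 13 of 15 genes reached the mean, 0 passed 2-fold, and the median was -0.092. Irf8, a monocyte transcription factor, was lowest at 0.581 FPKM in the deletion sample and 2.10 FPKM in the control, and Csf2rb, a shared cytokine receptor chain, was next at 2.37 and 4.11 FPKM. Cebpa and Spi1 (PU.1), transcription factors of myeloid progenitors, were highest at 13.6 and 9.28 FPKM and at 29.0 and 23.2 FPKM. Of the ligand genes, read out after their values were seen, Csf1 had 58 fragments in the deletion sample and 113 in the control, and Il34 had 0 and 7.

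Among partners of VCAM1, fibronectin and factor XIII, 12 of 17 reached the mean, 1 was lower, 0 were higher and the median was -0.16. The lower gene was Thbs1, thrombospondin 1, at 6.26 FPKM in the deletion sample and 14.8 FPKM in the control, and the myeloid integrin gene Itgam followed at 2.03 and 3.40 FPKM. Icam2 and Itgb3 were highest, at 21.2 and 13.4 FPKM and at 5.28 and 3.52 FPKM. F13b, the B subunit of factor XIII, and Vtn were at 0 in both.

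**Figure D5:**
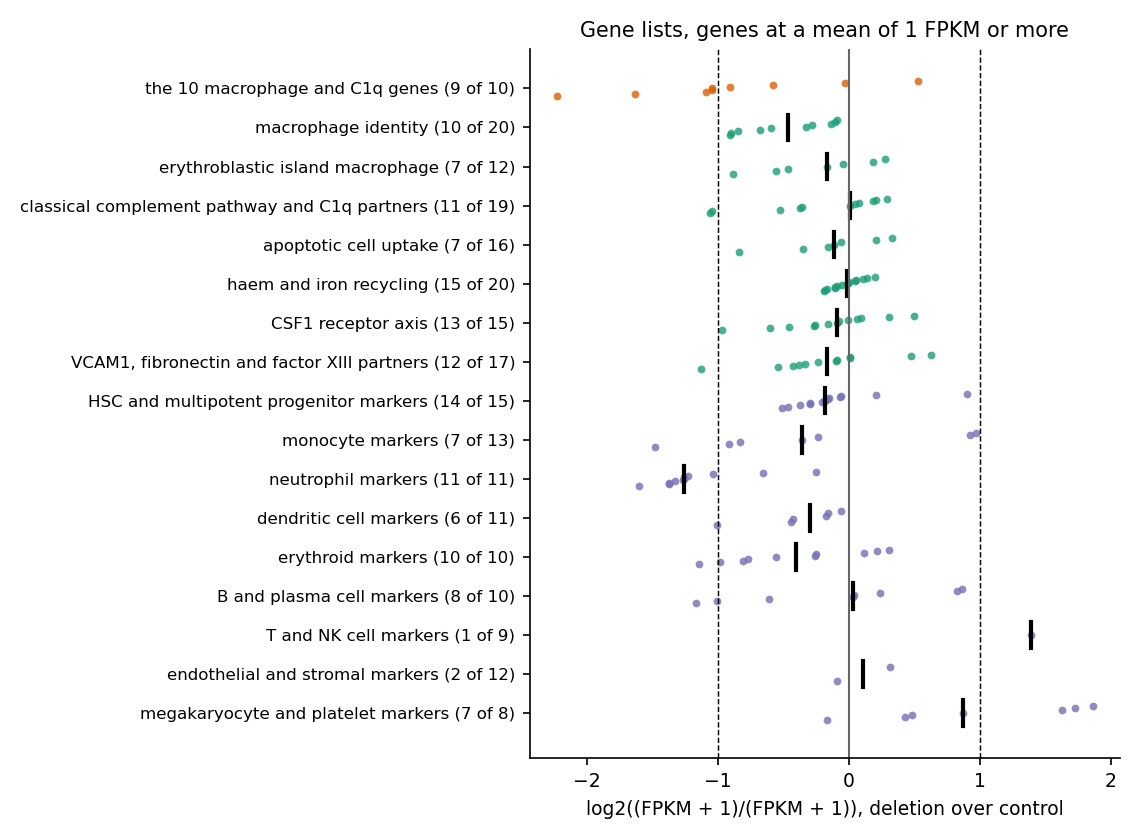
Log2((FPKM + 1)/(FPKM + 1)), deletion over control, of each gene that reaches a mean of 1 FPKM, with the 10 macrophage and C1q genes in orange, pathway lists in green and cell type marker lists in purple, each with the number at the mean of the number listed. Black bars are list medians and dashed lines are 2-fold; the macrophage identity bar is at -0.46 and the neutrophil bar at -1.26.

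Markers of other cells were read beside these values. HSC and multipotent progenitor markers were present, with 14 of 15 at the mean, 0 past 2-fold, a median of -0.18 and a sum of 177 FPKM in the control and 166 FPKM in the deletion sample (Kit 54.3 and 48.8 FPKM, lowest ratio Ly6a). Neutrophil markers had 9 of 11 genes at least 2-fold lower, with a median of -1.26 and sums of 2560 FPKM in the control and 1454 FPKM in the deletion sample, from S100a9, the most abundant, at 970.2 and 615 FPKM to Ltf, of lowest ratio, at 112 and 36.3 FPKM. The monocyte list had 7 of 13 genes at the mean, a median of -0.35 and sums of 686 and 485 FPKM, with S100a4 at 0 in both. Its genes went both ways. Lyz2 was at least 2-fold lower at 242 and 86.1 FPKM and Nr4a1, the most abundant, stood at 222 and 188 FPKM, whereas Ly6c2 and Fcnb, read out after their values were seen, stood at 30.4 and 60.8 FPKM and at 26.6 and 51.6 FPKM. Dendritic cell markers had 6 of 11 at the mean, 1 lower (Cd74), a median of -0.30, Batf3 at 0 in both and sums of 129 and 95.3 FPKM, with Bst2 the most abundant at 56.1 and 49.7 FPKM. Erythroid markers had 10 of 10 at the mean, 1 lower (Alas2), 7 below 0 and a median of -0.40. Their sums of 1767 and 2023 FPKM were mostly Car1, at 1315 and 1629 FPKM. For B and plasma cell markers, 8 of 10 reached the mean, 2 were lower, among them Igkc, the median was 0.037 and sums were 672 and 413 FPKM. Megakaryocyte and platelet markers had 7 of 8 at the mean, 3 higher, a median of 0.88 and sums of 61.6 and 156 FPKM, from Pf4, the most abundant, at 29.9 and 94.7 FPKM to Gp1ba, of lowest ratio, at 2.35 and 1.99 FPKM. Only 1 of 9 T and NK markers (Nkg7, higher) and 2 of 12 endothelial and stromal markers (Pecam1 and Pdgfrb) reached the mean, with sums of 31.7 and 80.2 FPKM and of 8.95 and 8.36 FPKM, and with Lepr at 0 in both. The T and NK sums were mostly Nkg7, at 29.1 and 78.0 FPKM. Cd3e, Cd3d, Cd3g and Cd8a were at 0 in the deletion sample only, with between 2 (Cd3d) and 11 (Cd8a) fragments in the control. With fragments divided by 6 all their intervals included equality, with upper ends from 2.74 (Cd8a) to 16.0 (Cd3d). Cd4 had 73 fragments in the control and 35 in the deletion sample, whereas Gzma had 9 and 19. The part of these cell types, and of the unequal low fragment numbers, in the values of the 10 genes was not tested.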

How the data were processed

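RNA of HSCs sorted from mouse bone marrow was prepared with TRIzol and a column kit and read as 150 bp paired ends, per the labels' protocols. The deposited table gives FPKM computed by the authors for 54531 Ensembl genes in 2 libraries, 1 per genotype. The submitters' processing notes name Bowtie 0.12.2 and mm8 without saying how they were used, and the program that counted fragments is not given in the sources used here. Columns were matched to samples by their descriptions. Symbols came from a table of gene names and exon lengths and positions from GENCODE M21 on GRCm38, which held 54494 of the 54531 identifiers.

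FPKM times exon length gave fragment numbers, within 0.02 of whole. Intervals are exact Clopper-Pearson intervals at 95% on the ratio without a pseudocount (scipy 1.17.1, Python 3.11.15). Ratios elsewhere are log2((FPKM + 1)/(FPKM + 1)). Alternatives were pseudocounts, minimum levels, scalings, thresholds and gene types, with some added after the data were seen. Scripts were tested on simulated data.

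The 10 genes and all lists were chosen with earlier results of these data known. Named besides the 10 were Angptl2, Cdh5, the 2 highest and 2 lowest ratios of each pathway list, the most abundant and lowest-ratio marker of each cell type list, and genes at 0 in both libraries. Any other gene named, among them those at 0 in the deletion sample only, Pdgfrb and Hmgxb3, was chosen after its values were seen.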

Additional observations from a re-analysis of the deposited data

How the results depend on the processing

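The sign of each of the 10 log2 ratios was the same under all 8 alternatives of pseudocount and scaling, with C1qa from -1.28 to -0.66, Csf1r from -2.41 to -0.71, Fn1 from -3.22 to -1.04, Vcam1 from 0.31 to 0.63 and Slc40a1 from -0.17 to -0.013. A pseudocount added to both values cannot change a sign, so only the scaling alternatives could have done so. Rescaling to a common total of 1000000 took the median over all genes to -0.16 from -0.011. As reported, 5 of the 9 genes at the mean were at least 2-fold lower, against 305 higher and 417 lower (3.38%) of 12325 genes. A pseudocount of 5 left 1 of the 9 (Fn1), with 74 higher and 118 lower (0.957%) of all genes. A pseudocount of 0.1 gave 6 (adding C1qb), with 471 and 599 (4.86%). The common total gave 7 of the 10 lower (adding C1qb and Mertk), with 618 and 1182 (7.87%) of 15021 genes. That total of 1000000 is above the summed FPKM, 379052 in the control and 419943 in the deletion sample. Levels therefore rise against the fixed pseudocount and minimum of 1, and by more in the control. At a minimum mean of 5 FPKM, 2 of the 4 genes reaching it were lower (C1qa and Hmox1), with 83 and 97 (1.27%) of 7658 genes. C1qa, C1qb and Hmox1 reached it through the control only. With no minimum 5 of the 10 were lower, with 428 and 683 (2.97%) of 23003 genes. A 4-fold threshold left 1 of the 9, with 75 and 165 (1.34%) of all genes, and a 1.5-fold threshold gave 6, with 708 and 749 (6.08%). Protein-coding genes alone gave 5 of the 9, with 50 and 77 (0.752%) of 10237 genes. At a mean of 200 fragments, a minimum chosen after seeing the data, 4 of the 6 genes reaching it were lower, with 37 and 42 (0.477%) of 8802 genes. The lower genes were Csf1r, F13a1, Fn1 and Hmox1. F13a1, Fn1 and Hmox1 reached the minimum only through the control, at 438, 1334 and 316 fragments, against 148, 121 and 128 in the deletion sample. Csf1r has no recovered fragment number, so its place in this count rests on a value that was not whole. By counting intervals that excluded equality, 6 of the 8 genes counted were lower and 1 higher, with 3140 higher and 3517 lower (30.0%) of 11710 genes. Mertk, under the mean, and Csf1r, without fragment numbers, were not counted by intervals. With fragments divided by 6, also chosen after seeing the data, 5 of the 8 were lower and 1 higher, with 966 higher and 1166 lower (9.96%). Calls of all genes were 57.8% lower ones as reported and 66.2% with the deletion sample scaled to the total of the control, a setting added after seeing the data. In that setting 6 of the 9 were lower, beside 3.76% of all genes. The medians of the erythroblastic island, apoptotic uptake and complement lists changed sign under at least 1 alternative (0.18 and 0.21 at a minimum mean of 5 FPKM for the first 2, -0.13 on the common total for the third), as did those of the B and plasma cell (-0.10 on the common total), T and NK (-0.089 with no minimum) and endothelial and stromal markers (-0.28 on the common total). No paired analysis was possible because each genotype has 1 library, and no library could be left out. The depth of the lowest genes limits Mertk most, with 9 fragments in the deletion sample.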
